A study of Rattus norvegicus with 10 samples.

Results

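Oligodendrocyte precursors are dividing glial cells of the adult brain that can mature into myelin-forming oligodendrocytes. The 8 genes described here, Pdgfra, Cspg4, Olig1, Olig2, Sox10, Gpr17, Bmp4 and Nkx2-2, are used to recognise these precursors and the committed cells that follow them. They were taken by name from a table of 17168 genes, and all 8 were among the 11791 genes that passed a filter on low counts. The RNA is hippocampal, from the left side of the brain of TgF344-AD rats, all of them female and killed at 11 months. Every animal was transgenic, and this line carries human transgenes, mutant APP among them, driven by the mouse prion promoter. No non-transgenic animals enter the comparison. The 5 untreated animals ate ordinary rodent chow. The other 5 ate chow with 750 mg of RG2833 per kg from 5 months of age, for 6 months. RG2833 inhibits the histone deacetylases HDAC1 and HDAC3, and a blue food dye served to tell the chows apart. The design asks how the drug-fed animals differ from the untreated ones.

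In the lineage, PDGFRA is the receptor through which platelet-derived growth factor keeps precursors dividing, and the proteoglycan NG2, encoded by Cspg4, marks the same cells. OLIG1, OLIG2 and SOX10 are transcription factors that stay on from precursor to mature oligodendrocyte, so their RNA in a tissue does not come from precursors alone. GPR17 and BMP4 mark cells that have left the dividing state and are not yet myelinating, and NKX2-2 takes part in that exit. Histone deacetylase activity is known to be needed for precursors to mature. Outside the lineage, Pdgfra is also expressed by fibroblasts of the meninges and vessels, and Cspg4 by pericytes. Levels are given in CPM, the count of a gene scaled by library size and by the TMM factor, which assumes that most genes do not change. In whole tissue, fewer cells of a type and less RNA per cell cannot be told apart.

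None of the 8 genes was called different between the groups. Their fold changes went in both directions, and whether the 8 differed among themselves was not tested. The receptor gene Pdgfra and its companion Cspg4 had lower means in RG2833 animals, Sox10 had a higher mean, and Olig1, Olig2 and Gpr17 differed little. With edgeR's quasi-likelihood test and p-values adjusted by Benjamini-Hochberg over all genes tested, 0 of 8 passed an adjusted p of 0.05, against 5.08% of all genes tested. A gene is named as called below where it passed this test, unless another tool is named. At an unadjusted p under 0.05, 2 of 8 passed (Pdgfra and Sox10), against 24.5% of all genes. DESeq2's Wald test called the same pair, against 10.9% of all genes, whereas limma-voom (4.66% of all genes) and limma trend (5.16% of all genes at pseudocount 1 and 4.89% at 0.1, computed from the deposited values) called 0. An adjusted p under 0.1, passed by 12.4% of all genes, also took in that pair. These shares of all genes also apply to counts under the same settings in the lists below. The groups overlapped for all 8 genes, and 7.27% of all genes had groups that did not overlap. The median log2 fold change was 0.01 over the 8 genes and -0.0035 over all genes tested, with 4 of the 8 above 0 and 4 below.

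**Figure D1:**
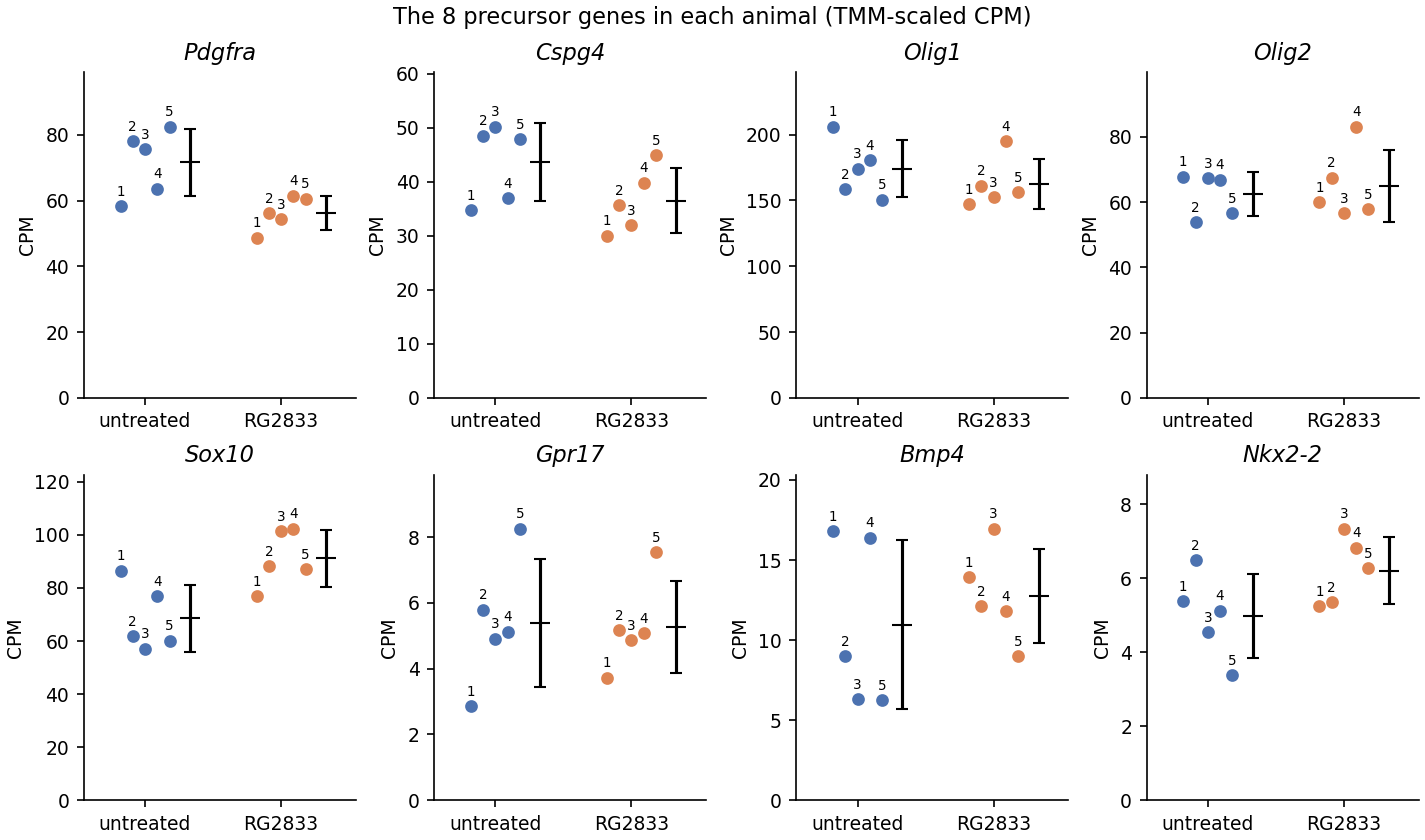
Level of each of the 8 genes in each animal, in CPM (vertical axis from 0), with untreated animals in blue and RG2833 animals in orange. Digits are replicate numbers, and the bar at the side is the mean with its SD (n = 5). Pdgfra sits lower and Sox10 higher in the RG2833 group, and the groups overlap in every panel.

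The libraries held 8764266 to 11311673 estimated counts each, and the totals did not separate the groups (two-sided exact permutation test, p = 0.659). The percentage of each library assigned to ribosomal RNA genes did separate them. It lay between 2.70% and 5.36% in untreated and between 1.13% and 1.96% in RG2833 animals (p = 0.00794 by an exact permutation test, two-sided, which is the smallest that 5 against 5 allows). Marker genes of other cells varied as well. The summed level of 8 choroid plexus genes was 2475 CPM in untreated replicate 1, and no other animal was above 49.7 CPM. The sum over 8 neuron genes ran from 4840 to 7328 CPM in untreated and from 7462 to 9026 CPM in RG2833 animals, without overlap. Against 5.08% of all genes, called in these lists were 1 of 8 neuron genes, Rbfox3 (log2 fold change 0.57; edgeR adjusted p = 0.0400), and 1 of 3 choroid plexus genes tested, Prlr (-0.86; edgeR adjusted p = 0.0394), each in 2 of the 10 fits that left out 1 animal. Among endothelial genes all 5 tested had fold changes below 1 (median log2 fold change -0.30). Of these, 0 were called by edgeR (5.08% of all genes) and 3 had an unadjusted p under 0.05 (24.5% of all genes). Their sums were 174 to 269 CPM in untreated and 159 to 179 CPM in RG2833 animals. DESeq2's Wald test called 2 of these genes lower, against 10.9% of all genes. EdgeR called 1 lower without untreated replicate 4 (13.1% of all genes) or 5 (902 of 11852 genes). Of 8 microglia genes 7 had fold changes below 1 and 1 was called (5.08% of all genes), the calcium-binding protein gene Aif1, which fell from 36.2 ± 12.4 to 21.7 ± 0.986 CPM (SD, n = 5 each; edgeR adjusted p = 0.0496). When 1 animal was left out it was called only without untreated replicate 4 or 5, and it was not called with limma-voom (adjusted p = 0.0784), with limma trend or with no filter on low counts. Their part in the results below was not tested, and the ribosomal RNA share and the treatment cannot be told apart in this design.

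Pdgfra and Cspg4 varied together from animal to animal, more closely than any other pair of the 8. The first 250 bases before and 50 after their start sites are shown because of this shared pattern. They are taken from the RefSeq promoter table of build GRCr8, and letters matching any of 5 motifs searched on both strands are in capitals. The motifs were the E-box CANNTG bound by OLIG and other basic helix-loop-helix factors, the GLI motif TGGGTGGTC, the SOX motifs ACAATG and ACAAAG, and the SMAD motif GGCGCC. The table holds 6 of the 8 genes, and Olig1 and Sox10 were not matched.
Pdgfra promoter (chr14:33408467-33408766, minus strand): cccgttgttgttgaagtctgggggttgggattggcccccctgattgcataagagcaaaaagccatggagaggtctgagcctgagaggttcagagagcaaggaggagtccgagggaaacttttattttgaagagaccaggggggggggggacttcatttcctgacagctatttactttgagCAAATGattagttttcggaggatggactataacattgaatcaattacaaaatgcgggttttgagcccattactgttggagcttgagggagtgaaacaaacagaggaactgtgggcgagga
Cspg4 promoter (chr8:66160692-66160991, plus strand): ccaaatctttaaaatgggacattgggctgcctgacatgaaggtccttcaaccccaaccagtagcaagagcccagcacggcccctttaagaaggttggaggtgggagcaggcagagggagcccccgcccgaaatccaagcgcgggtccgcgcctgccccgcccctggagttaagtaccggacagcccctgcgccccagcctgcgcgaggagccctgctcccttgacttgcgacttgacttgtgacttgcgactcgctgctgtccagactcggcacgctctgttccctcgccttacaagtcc
The Pdgfra window held 1 E-box, with its first base 70 bases before the start site, and none of the other motifs. The Cspg4 window held none of the 5. Its base composition was richer in G and C, at 62% against 48% for Pdgfra. An E-box occurs in 72.1% of the 33469 promoters of this table, so its presence or absence sets neither gene apart. Of the other 4 promoters, that of Bmp4 held 2 E-boxes and that of Olig2 held 1 SMAD motif, which occurs in 11.0% of all promoters. Those of Gpr17 and Nkx2-2 held none of the 5. The GLI motif, present in 0.385% of promoters, was in none of the 6, and the SOX motifs (13.2% and 18.8% of promoters) were in none of them either.

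Pdgfra, the growth factor receptor gene, was 58.2, 78.0, 75.6, 63.6 and 82.5 CPM in untreated replicates 1 to 5. In RG2833 replicates 1 to 5 it was 48.7, 56.2, 54.4, 61.4 and 60.6 CPM. All 5 RG2833 animals lay below the untreated median of 75.6 CPM and 3 lay below the lowest untreated animal, with untreated replicates 1 and 4 inside or near the RG2833 range. The means were 71.6 ± 10.2 CPM and 56.2 ± 5.17 CPM (SD, n = 5 each). The log2 fold change was -0.35 ± 0.10 (SE; 95% interval -0.57 to -0.12), and the gene was not called (edgeR adjusted p = 0.0688). Without untreated replicate 4 it was called, at -0.39 (edgeR adjusted p = 0.0329), and DESeq2's Wald test on all animals also called it (adjusted p = 0.0287). The value shrank to -0.21 ± 0.21 (log2, SE) when the ribosomal RNA share entered the fit and to -0.23 ± 0.13 with 1 surrogate variable. Neither fit called Pdgfra (edgeR adjusted p = 0.9999 and 0.549), and of all 11791 genes they called only 2 and 5. Without untreated replicate 1 the groups no longer overlapped, as for 8.62% of all genes in that comparison. Markers of fibroblasts, which also express Pdgfra, had summed levels of 69.9 to 223 CPM in untreated and 63.2 to 91.5 CPM in RG2833 animals. The 223 CPM were those of untreated replicate 1, which also had 2475 CPM of choroid plexus genes, and the next highest untreated animal had 115 CPM. Of these 9 markers 0 were called by edgeR (5.08% of all genes), 2 had an unadjusted p under 0.05 and 4 had fold changes below 1, among them Dcn, a collagen-binding proteoglycan gene (-1.26 ± 0.35 on the log2 scale, SE; edgeR adjusted p = 0.0561), and none was at 0 in every animal. DESeq2's Wald test and the fit without untreated replicate 4, which called Pdgfra, called 1 and 2 of these 9 markers lower. Of all genes they called 10.9% and 13.1%. An adjusted p under 0.1, which took in Pdgfra and 12.4% of all genes, also took in Dcn. The part of fibroblast RNA in the Pdgfra difference was not tested.

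Cspg4, which encodes NG2, was 34.8, 48.5, 50.2, 37.0 and 47.9 CPM in untreated replicates 1 to 5 and 30.05, 35.7, 31.9, 39.8 and 44.9 CPM in RG2833 replicates 1 to 5. As with Pdgfra, untreated replicates 1 and 4 were the low animals of their group. All 5 RG2833 animals lay below the untreated median of 47.9 CPM, but only 2 lay below the lowest untreated animal. The means were 43.7 ± 7.23 and 36.5 ± 6.01 CPM (SD, n = 5 each), and the log2 fold change of -0.26 ± 0.13 (SE; 95% interval -0.55 to 0.03) was not called (edgeR adjusted p = 0.247). When the ribosomal RNA share entered the fit, the value was 0.00077 ± 0.27 (log2, SE). The summed level of 11 pericyte and smooth muscle markers was 186 to 233 CPM in untreated and 170 to 207 CPM in RG2833 animals. Of these markers 9 had fold changes below 1, 2 had an unadjusted p under 0.05 (24.5% of all genes) and none was at 0 in every animal. EdgeR called 0 of these markers (5.08% of all genes) and DESeq2's Wald test 0 (10.9%). Without untreated replicate 4 edgeR called 1 of the markers, lower (13.1%). Their part in the Cspg4 values was not tested. The ratio of Cspg4 to Pdgfra within an animal, chosen after the values were seen and given without a test, was 0.609 ± 0.0351 in untreated and 0.646 ± 0.0578 in RG2833 animals (SD, n = 5 each).

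**Figure D2:**
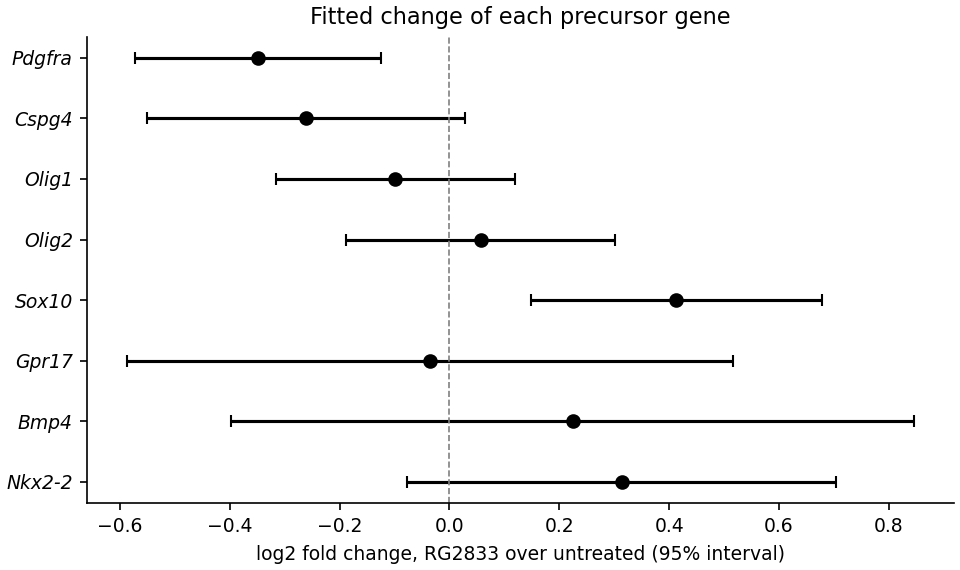
Log2 fold change of each gene, RG2833 over untreated, with its 95% interval from the edgeR fit on 5 animals per group. The intervals of Pdgfra (-0.57 to -0.12) and Sox10 (0.15 to 0.68) leave out 0, those of the other 6 genes include it, and no gene passed the threshold after adjustment over all genes.

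Among the transcription factors, Sox10 gave the largest difference. SOX10 is the HMG-box factor that switches on myelin genes in maturing cells. Its RNA was 86.5, 61.8, 57.1, 77.0 and 60.2 CPM in untreated replicates 1 to 5 and 76.8, 88.2, 101.4, 102.3 and 87.1 CPM in RG2833 replicates 1 to 5. In this case untreated replicates 1 and 4 were the high animals of their group, and 4 of 5 RG2833 animals lay above the highest of them. The means were 68.5 ± 12.6 and 91.2 ± 10.7 CPM (SD, n = 5 each). The log2 fold change of 0.41 ± 0.12 (SE; 95% interval 0.15 to 0.68), or 33.1% higher, was not called (edgeR adjusted p = 0.0688). It was called by DESeq2's Wald test (adjusted p = 0.0250), and by edgeR without untreated replicate 1 (0.51, edgeR adjusted p = 0.0462) or without untreated replicate 4 (0.46, edgeR adjusted p = 0.0362). When the ribosomal RNA share entered the fit, the direction turned, to -0.068 ± 0.19 (log2, SE), and with 1 surrogate variable the value was 0.24 ± 0.15. Without RG2833 replicate 1 the groups no longer overlapped, as for 9.35% of all genes in that comparison. Of all genes tested, 1.63% were called without untreated replicate 1 and 13.1% without untreated replicate 4.

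Olig1 and Olig2, neighbouring paralogues on the same chromosome that encode basic helix-loop-helix factors, showed no detectable difference. Olig1 was 206, 159, 174, 180.5 and 151 CPM in untreated replicates 1 to 5 and 147, 161, 153, 195 and 156 CPM in RG2833 replicates 1 to 5. The means were 174 ± 21.6 and 162 ± 18.9 CPM (SD, n = 5 each), a log2 fold change of -0.10 ± 0.10 (SE; 95% interval -0.32 to 0.12; edgeR adjusted p = 0.577). Olig2, which specifies the lineage, was 67.8, 53.8, 67.3, 66.8 and 56.7 CPM in untreated and 60.0, 67.4, 56.6, 83.2 and 57.9 CPM in RG2833 replicates 1 to 5. The groups overlapped, and 4 of 5 RG2833 animals lay inside the untreated range of 53.8 to 67.8 CPM. RG2833 replicate 4 lay above it and was highest in its group for both paralogues. For Olig2 the means were 62.5 ± 6.68 and 65.0 ± 11.0 CPM (SD, n = 5 each), and the log2 fold change of 0.06 ± 0.11 (SE; 95% interval -0.19 to 0.30; edgeR adjusted p = 0.795) turned to -0.05 without that animal. The ratio of Olig1 to Olig2 counts within an animal was 2.79 ± 0.196 in untreated and 2.52 ± 0.170 in RG2833 animals (SD, n = 5 each). This ratio was also chosen after the values were seen, and its groups overlapped.

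Nkx2-2, a homeobox gene of the exit from the precursor state, was scarce, with 32 to 71 estimated counts per library. It was 5.38, 6.49, 4.54, 5.12 and 3.38 CPM in untreated and 5.25, 5.35, 7.34, 6.83 and 6.28 CPM in RG2833 replicates 1 to 5. All 5 RG2833 animals lay above the untreated median of 5.12 CPM and 2 lay above the highest untreated animal. The log2 fold change was 0.31 ± 0.18 (SE; 95% interval -0.08 to 0.70; edgeR adjusted p = 0.303), and 0.17 ± 0.24 with 1 surrogate variable.

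The markers of committed precursors had the widest spread. Gpr17, which encodes a G protein-coupled receptor switched on briefly before myelination, had 25 to 78 estimated counts per library, so that counting error alone reached 20% in the lowest library. It was 2.86, 5.79, 4.91, 5.12 and 8.25 CPM in untreated and 3.72, 5.17, 4.86, 5.07 and 7.53 CPM in RG2833 replicates 1 to 5. The RG2833 values lay entirely inside the untreated range. The log2 fold change was -0.04 ± 0.25 (SE; 95% interval -0.59 to 0.52; edgeR adjusted p = 0.945), an interval that at this depth leaves room for a change in either direction, and its sign turned under 4 alternatives.

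Bmp4 encodes a secreted factor that holds precursors back from maturing and can steer them towards astrocytes. It was 16.8, 8.99, 6.30, 16.4 and 6.24 CPM in untreated replicates 1 to 5, so that untreated replicates 1 and 4 stood well above the other 3. In RG2833 replicates 1 to 5 it was 13.9, 12.1, 17.0, 11.8 and 9.0 CPM, between and around these extremes. The coefficient of variation was 48.2% in the untreated group, the largest of the 8 genes there, and 23.0% in the RG2833 group. Whether the spread itself differed was not tested. The means were 10.9 ± 5.28 and 12.8 ± 2.93 CPM (SD, n = 5 each), and the log2 fold change of 0.22 ± 0.29 (SE; 95% interval -0.40 to 0.85) was not called (edgeR adjusted p = 0.665). It turned to -0.59 with the ribosomal RNA share in the fit and to -0.23 with 1 surrogate variable.

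The same animals stood apart in several of these genes, and they also differed in the RNA of mature oligodendrocytes. The summed level of 14 genes of myelinating cells, among them Mbp, was 18769 CPM in untreated replicate 1 and 13406 CPM in untreated replicate 4. It was 6938, 6863 and 6194 CPM in untreated replicates 2, 3 and 5. In RG2833 animals it lay between 9637 and 13046 CPM, above the 3 low and below the 2 high untreated animals. The untreated animals with the most mature RNA were thus those with the least Pdgfra and Cspg4 and the most Sox10 and Bmp4 of their group. RG2833 animals did not keep this order for Pdgfra and Cspg4. Replicate 1, with the least mature RNA (9637 CPM), had the least of both, and replicate 3, with the most (13046 CPM), had the next lowest. Sox10 was highest in RG2833 replicates 3 and 4 (13046 and 12455 CPM of mature RNA). Bmp4 was highest in replicate 3, but in replicate 4 it lay below replicates 1 and 2. Of the 14 mature genes 0 were called by edgeR or DESeq2's Wald test (5.08% and 10.9% of all genes), 0 had an unadjusted p under 0.05 and 13 had fold changes above 1 (median log2 fold change 0.13). These values were set side by side after they were seen, and the part of mature oligodendrocyte RNA in the differences was not tested.

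**Figure D3:**
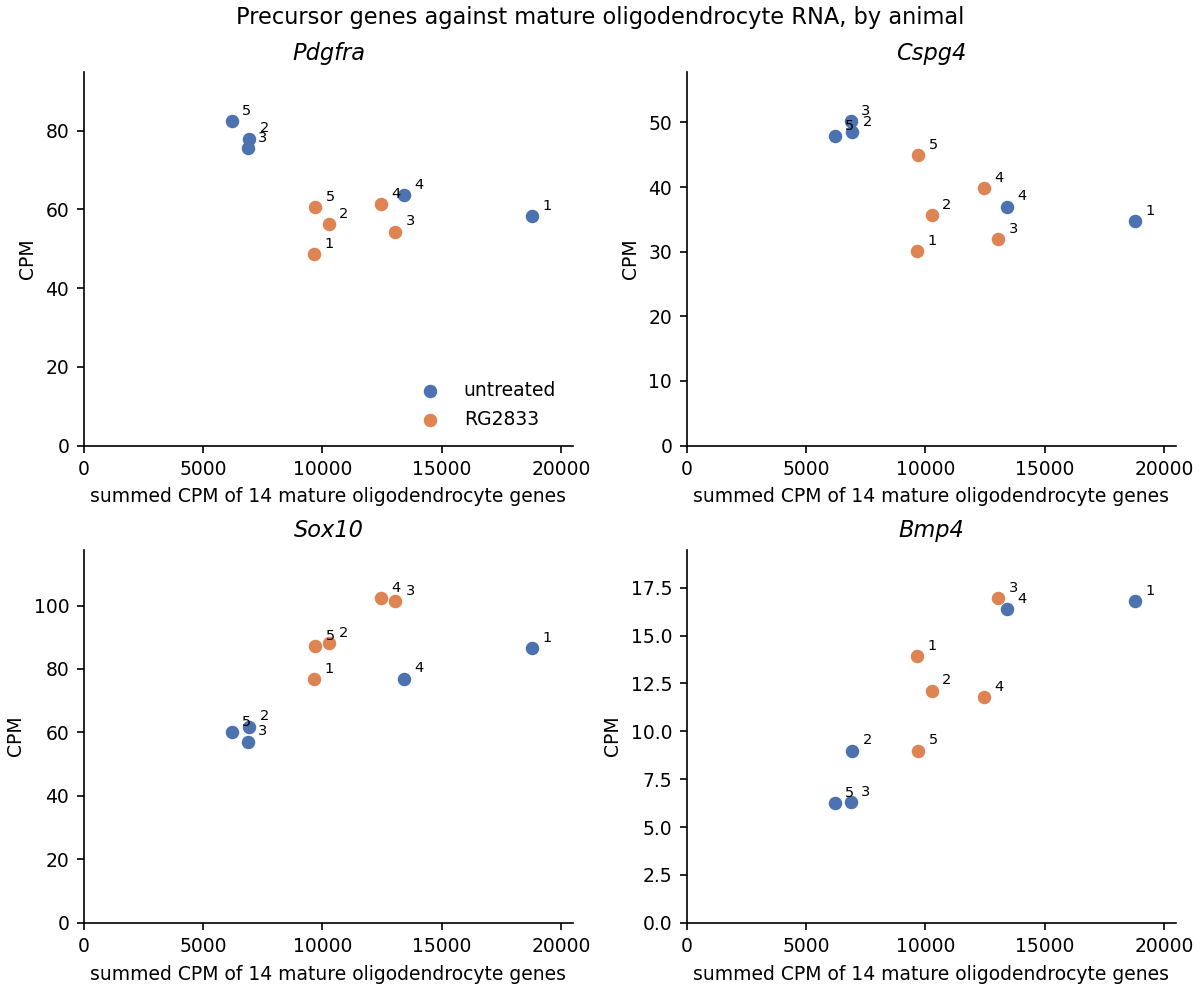
Level of Pdgfra, Cspg4, Sox10 and Bmp4 (CPM, vertical axis) against the summed CPM of 14 mature oligodendrocyte genes (horizontal axis) in each animal, untreated in blue and RG2833 in orange, with replicate numbers. Untreated replicates 2, 3 and 5 lie at the left, with high Pdgfra and Cspg4 and low Sox10 and Bmp4, and untreated replicates 1 and 4 lie further right than all 5 RG2833 animals.

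Because the length of a gene cancels in a ratio compared across animals, the opposed pattern can be given as Sox10 over Pdgfra. This ratio, chosen after the values were seen and given without a test, was 1.49, 0.793, 0.755, 1.21 and 0.729 in untreated replicates 1 to 5. It was 1.58, 1.57, 1.87, 1.66 and 1.44 in RG2833 replicates 1 to 5. The RG2833 animals thus lay above 4 of the 5 untreated animals, and untreated replicate 1 fell among them. The means were 0.995 ± 0.338 and 1.62 ± 0.157 (SD, n = 5 each).

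How alike the patterns were was measured as the root mean square difference between log2 CPM standardised over the 10 animals, where 0 is the same pattern. The median distance from each of the 8 genes to all genes compared was between 1.33 and 1.34. Pdgfra and Cspg4 were the closest pair, at 0.396, followed by Olig1 and Olig2 at 0.640 and by Sox10 and Bmp4 at 0.704. Sox10 and Nkx2-2 were at 0.753 and Gpr17 was nearest to Cspg4, at 0.793. The most unlike pair was Cspg4 and Bmp4, at 1.84. These distances describe 10 animals that share their libraries with every gene and include the difference between groups.

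**Figure D4:**
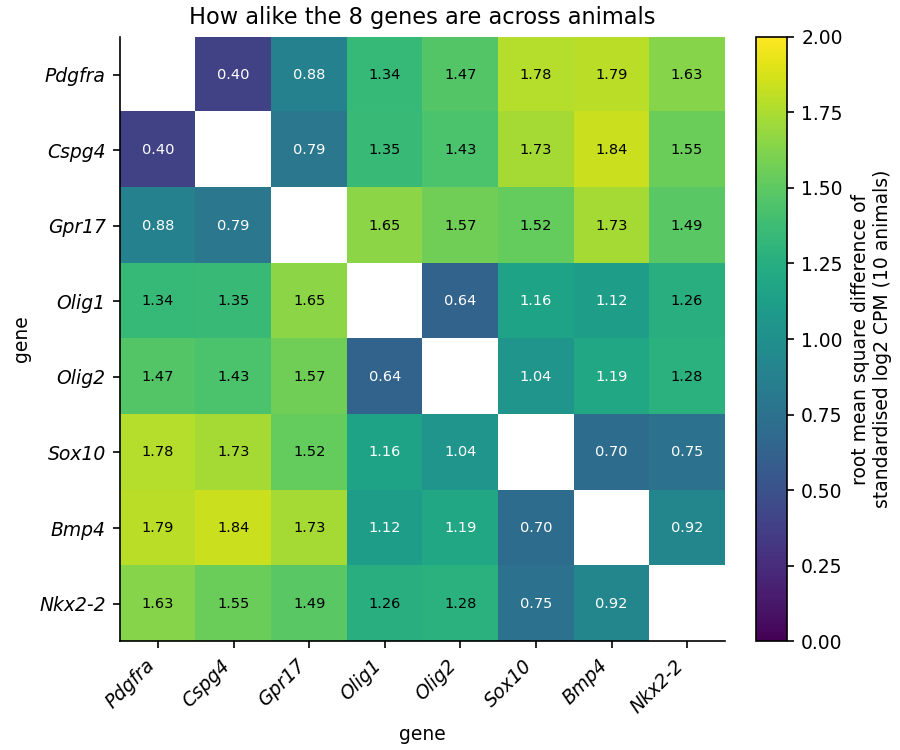
Root mean square difference of standardised log2 CPM over 10 animals for each of the 28 pairs of genes, where dark squares are alike. Pdgfra and Cspg4 (0.396) form the darkest square, with Gpr17 next to them, Olig1 with Olig2 and Sox10 with Bmp4 and Nkx2-2 form others, and Pdgfra and Cspg4 are far from Sox10 and Bmp4.

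Among all 11781 other genes compared with each, those most like Pdgfra were Pald1 (0.29) and Mfge8 (0.35), and those most like Cspg4 were Ptprz1 (0.357), another precursor gene, and Marf1 (0.366). Sox10 was followed most closely by Hist2h2ab (0.323) and Bin1 (0.35), and Bmp4 by Ptma (0.31) and Mettl7a (0.322). For Nkx2-2 they were Arsa (0.338) and Ltbr (0.357), and for Gpr17 Rims4 (0.351) and Nr2c2 (0.372). Olig1 was nearest to Rnls (0.382) and Fnta (0.386). The nearest genes of Olig2, Crh and Layn, were further away, at 0.45 each. With so many genes and 10 animals, close neighbours are easily found, and none of these 16 was called.

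Other genes of precursors gave no call either. Of 13 tested, which include the receptor phosphatase gene Ptprz1 and the proteoglycan gene Vcan, 0 were called by edgeR or by DESeq2's Wald test (5.08% and 10.9% of all genes), 0 had an unadjusted p under 0.05, 6 had fold changes above 1 and 7 below, and the median log2 fold change was -0.01. The smallest p-value was that of Neu4, a sialidase gene (-0.25 ± 0.15, SE; edgeR adjusted p = 0.320). Dividing cells are a small part of adult tissue. Of 10 proliferation genes tested 0 were called by edgeR (5.08% of all genes) and 1 had an unadjusted p under 0.05 (24.5% of all genes). With DESeq2's Wald test 1 was called lower (10.9% of all genes). The same count was called lower with library totals only as scaling (595 of 11791 genes) and with genes of a mean count of at least 50 (629 of 10018). Without untreated replicate 5, 1 was also called lower (902 of 11852 genes). Of the 10, 9 had fold changes below 1 (median log2 fold change -0.15). Pcna, the replication clamp gene, was closest to the threshold, with groups that did not overlap, as for 7.27% of all genes (27.5 ± 2.77 and 22.2 ± 0.529 CPM, SD, n = 5 each; log2 fold change -0.31; edgeR adjusted p = 0.0579). Mki67, a marker of cycling cells, was at 6.17 ± 2.02 and 6.103 ± 1.197 CPM.

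Among genes of committed and newly formed oligodendrocytes, 1 of 12 tested was called, against 5.08% of all genes. Of the 12, 7 had fold changes above 1 and 5 below, with a median log2 fold change of 0.05. Fyn, a Src-family kinase gene that is active in maturing oligodendrocytes and also in neurons, rose from 132 ± 10.9 to 163 ± 4.31 CPM (SD, n = 5 each; log2 fold change 0.30 ± 0.07, SE; edgeR adjusted p = 0.0309). It was called in 2 of the 10 fits that left out 1 animal, those without untreated replicate 4 or 5. The next smallest p-value was that of Tmem2, a membrane protein gene with a lower mean, at 25.4 ± 3.84 and 21.1 ± 1.23 CPM (-0.26 ± 0.11; edgeR adjusted p = 0.156). Enpp6, a marker of newly formed oligodendrocytes, was at 5.39 ± 0.623 and 7.100 ± 1.399 CPM (0.40 ± 0.17; edgeR adjusted p = 0.166). Myrf, the myelin gene regulator, was at 124 ± 43.0 and 152 ± 17.3 CPM and was not called.

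Of 18 other regulators of the lineage tested, 3 were called, all higher (5.08% of all genes were called in either direction), with a median log2 fold change of 0.20 over the list. Nfia, a nuclear factor I gene of glial development, rose from 29.0 ± 4.595 to 45.4 ± 6.68 CPM (SD, n = 5 each; 0.64 ± 0.13, SE; edgeR adjusted p = 0.0189). Tcf4, which encodes a dimer partner of OLIG factors, rose from 86.9 ± 19.2 to 128 ± 12.4 CPM (0.56 ± 0.13; edgeR adjusted p = 0.0367). Yy1, a zinc finger regulator, rose by 0.29 ± 0.08 on the log2 scale (edgeR adjusted p = 0.0458). All 3 genes are also expressed in neurons or astrocytes, and the groups did not overlap for any of them, as for 7.27% of all genes. When 1 animal at a time was left out, Nfia was called in 6 of 10 fits and Tcf4 and Yy1 in 2. Nfia was lost without untreated replicate 3 or RG2833 replicate 2, 3 or 5, and Tcf4 and Yy1 were called only without untreated replicate 4 or 5. With the ribosomal RNA share or 1 surrogate variable as a covariate, none of the called genes named in these lists was called. Those fits called only 2 and 5 of all 11791 genes, so this loss sets none of the named genes apart.

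**Figure D5:**
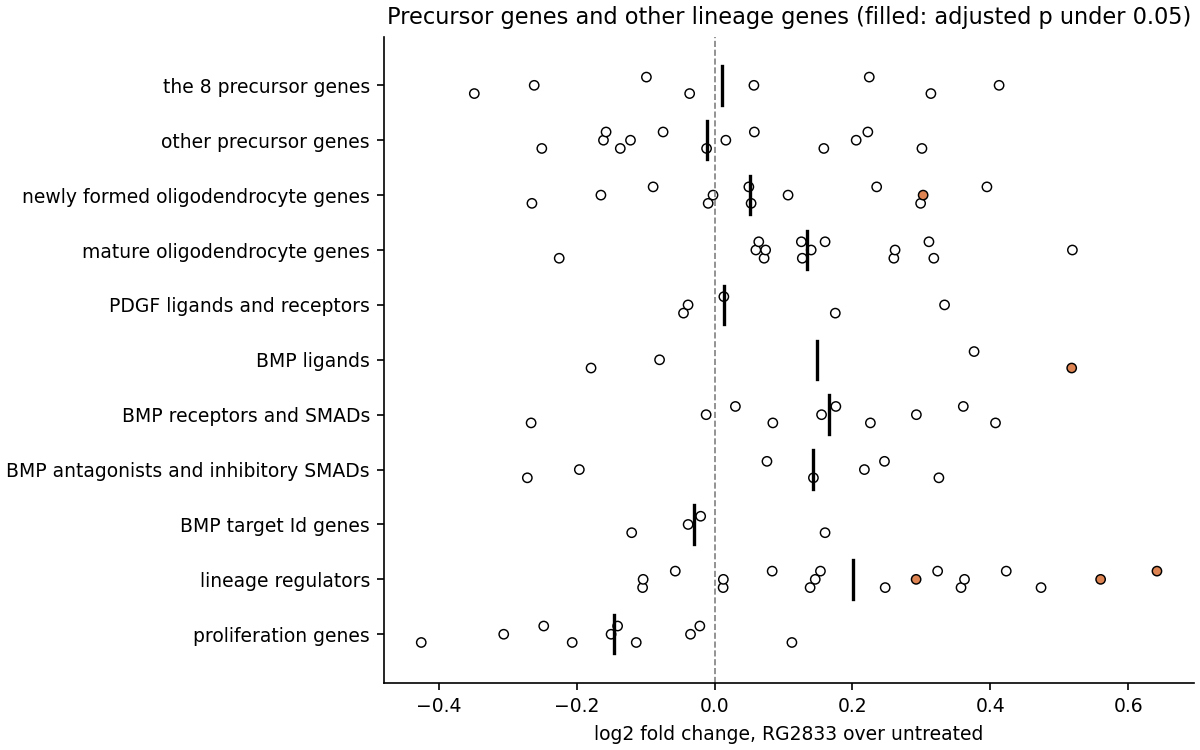
Log2 fold change (RG2833 over untreated, horizontal axis) of each tested gene of the 8 precursor genes and of 10 related lists, with list medians as vertical bars and genes called at an adjusted p under 0.05 filled. Called genes appear among newly formed oligodendrocyte genes (Fyn), BMP ligands (Bmp6) and lineage regulators (Nfia, Tcf4 and Yy1), and none among the 8 genes.

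In the pathway of Pdgfra, none of the 4 ligand genes or the related receptor gene Pdgfrb was called by edgeR (5.08% of all genes). At an unadjusted p under 0.05 there was 1 of 5, against 24.5% of all genes. With DESeq2's Wald test 1 was called higher (10.9% of all genes), as was 1 without untreated replicate 3 (113 of 11845 genes). Pdgfa, whose product is the main ligand of PDGFRA on precursors, was at 33.1 ± 5.66 and 33.4 ± 2.47 CPM (SD, n = 5 each). Pdgfb was closest to the threshold, at 24.1 ± 3.79 and 30.3 ± 1.296 CPM (0.33 ± 0.10 on the log2 scale, SE; edgeR adjusted p = 0.0765). Pdgfrb, a pericyte receptor gene, was at 42.1 ± 3.29 and 40.9 ± 3.51 CPM.

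In the pathway of Bmp4, 1 of 4 other ligand genes tested was called, against 5.08% of all genes. Bmp6 rose from 12.2 ± 1.59 to 17.5 ± 2.53 CPM (SD, n = 5 each; log2 fold change 0.52 ± 0.13, SE; edgeR adjusted p = 0.0408). Its groups overlapped, and it was called in 3 of the 10 fits that left out 1 animal, those without untreated replicate 4 or 5 or RG2833 replicate 1. With library totals only as scaling it was not called. Of 10 receptor and SMAD genes 0 were called by edgeR or DESeq2's Wald test, 1 had an unadjusted p under 0.05 and 8 had fold changes above 1, with the smallest p-value for Acvr1, a type I receptor gene (0.23 ± 0.10; edgeR adjusted p = 0.199). Of 7 antagonist and inhibitory SMAD genes 0 were called by either tool and 0 had an unadjusted p under 0.05, and Nog, which encodes the BMP antagonist noggin, was at 12.9 ± 2.96 and 11.2 ± 2.51 CPM. The 4 Id genes, which BMP signals induce and whose products block helix-loop-helix factors, lay between -0.12 and 0.16 on the log2 scale, with 0 called by either tool and 0 at an unadjusted p under 0.05.

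Hedgehog signals switch on Olig2 and Nkx2-2 in development. Of 9 hedgehog pathway genes tested, 1 was called (5.08% of all genes), the target and effector gene Gli1, which fell from 7.396 ± 4.08 to 1.504 ± 0.408 CPM (SD, n = 5 each; log2 fold change -2.29 ± 0.43, SE; edgeR adjusted p = 0.0175). It was not called without RG2833 replicate 1 or 5, or with limma-voom (adjusted p = 0.0540), and its counts were too low for the fit on genes with a mean count of at least 50. Ptch1, the hedgehog receptor gene and also a pathway target, was at 18.1 ± 4.47 and 19.2 ± 3.48 CPM and was not called.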

How the data were processed

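Per the file name, the authors deposited estimated counts (RSEM expected counts with decimals, not normalized) and a second table whose signal is CPM after TMM scaling. The submitters' processing notes list bcl2fastq 2.17, Bowtie2 2.1.0, RSEM 1.2.15, edgeR and build rn6; the annotation is not given in the sources used here. Per the labels' protocols, libraries were strand-specific mRNA libraries. Columns were assigned by sample title. Recomputing TMM CPM from the rounded counts gave the deposited signal within 1% for 99.96% of non-zero values. Counts were rounded, filtered with filterByExpr, TMM-scaled and tested with edgeR 4.0.16 (R 4.3.3, quasi-likelihood, group only, all 10 libraries); the standard error is the fold change over the square root of F, and the 95% interval uses the fit's degrees of freedom. CPM are on the scale of the tested genes, and log2 CPM used a prior count of 2. Summed list levels use every listed gene in the table.

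Chi-square tests between libraries of a group (20 pairs) gave 4.60 to 36.3 per degree of freedom, more than sampling noise, so each library counts as 1 animal. A floor of 3 counts was 0.268 to 0.343 CPM. Intervals and floors cover counting and replicate error in these libraries only. Alternatives were other scalings and filters, DESeq2 1.42.0, limma 3.58.1 (voom, and trend on the deposited signal), unrounded counts, a replicate block, the ribosomal RNA share, 1 surrogate variable (sva 3.50.0), another threshold and leaving out each animal. Named were all 8 genes, called genes of the lists (otherwise the gene with the smallest p-value) and the 2 genes most like each of the 8 (1 gene under this rule is not reported here); Tmem2, Enpp6, Myrf, Mki67, Pdgfa, Pdgfrb, Nog, Ptch1, Dcn, Mbp and Vcan were chosen after their values were seen. The genes, lists and tests were chosen with earlier results of these data known.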

Additional observations from a re-analysis of the deposited data

Results flagged for a closer look

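Of 20 groups of 5 values examined (the 8 genes, the total count and the ribosomal RNA share, each in both groups), 1 had an outermost animal whose gap to its neighbour, over the whole range, passed Dixon's 95% limit of 0.71. Chance flags about 1 in 20 such groups. In RG2833 replicate 4, Olig1 was 194.9 CPM, whereas the other drug-fed animals lay between 147 and 161 CPM. The gap was 0.7103 of the range, just past the limit. Olig2 was also highest of its group in that animal.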

How the results depend on the processing

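All of these alternatives were planned with earlier results of these data known. The count of called precursor genes, 0, became 2 (Pdgfra and Sox10) with DESeq2's Wald test or an adjusted p under 0.1 (12.4% of all genes), and 0 to 2 when 1 animal was left out. The 599 genes called among all tested became 1286 with DESeq2's Wald test, 1466 at an adjusted p under 0.1, 2 with the ribosomal RNA share, 5 with 1 surrogate variable, and 98 to 1556 when 1 animal was left out. For the 19 other lists, 11 calls became 19, 20, 0, 0 and 2 to 20 under these settings in turn. The number of the 8 genes without overlap between groups, 0, was 0 to 1 when 1 animal was left out (Pdgfra without untreated replicate 1, where 8.62% of all genes did not overlap, and Sox10 without RG2833 replicate 1, where 9.35% did not). Directions reversed for Cspg4 (0.00077), Sox10 (-0.068) and Bmp4 (-0.59) with the ribosomal RNA share, Bmp4 (-0.23) with 1 surrogate variable, Olig2 (-0.053) without RG2833 replicate 4, and Gpr17 (0.16 without untreated replicate 5, 0.07 without RG2833 replicate 1, 0.00020 and 0.0077 with limma trend at pseudocounts 1 and 0.1); the cause was not tested. Leaving out 1 animal gave -0.053 to 0.10 for Olig2, -0.20 to 0.16 for Gpr17, 0.071 (without untreated replicate 3) to 0.42 (without untreated replicate 1) for Bmp4, -0.18 (without RG2833 replicate 4) to -0.031 (without untreated replicate 1) for Olig1 and 0.20 (without untreated replicate 5) to 0.43 (without untreated replicate 2) for Nkx2-2. Pdgfra, Nkx2-2 and Olig1 kept their direction in all 22 alternatives. The difference in total count ran from -33013 to 558774 when 1 animal was left out, reversed at -33013 and -28297. The ribosomal RNA share difference ran from -2.54 to -1.88 percentage points.

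Replicate numbers name different rats in each group. Between samples with the same number, deviations from the group mean correlated by -0.066 on average, and 1 of 10 samples correlated best with its own number. With the replicate block 180 genes were called among all genes, 0 of the 8 and 5 in the other lists, and the ribosomal RNA share difference of -2.26 points had an exact permutation p of 0.0625, the smallest that 5 pairs allow. Gpr17 and Nkx2-2, with the fewest counts, are those most limited by depth.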
